A study of Homo sapiens with 4 samples.

Results

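HOX genes are the homeobox transcription factors that give cells along the head-to-tail axis their positional identity, and in human chromatin they lie in 4 clusters, HOXA on chromosome 7, HOXB on chromosome 17, HOXC on chromosome 12 and HOXD on chromosome 2. The regions described here were taken from a chromatin immunoprecipitation and sequencing study of H3K27ac, histone H3 acetylated at lysine 27, in the human melanoma cell line A375, which is an established line. Members were all regions of the authors' deposited table whose assigned gene name began with HOXA, HOXB, HOXC or HOXD followed by a digit. The rule found 97 lines, or 89 distinct regions, among 95312 lines and 91107 distinct regions of the authors' deposited table. The HOXA cluster had 27 of them, HOXB 22, HOXC 29 and HOXD 11, and 8 regions carried more than 1 HOX gene name in the authors' deposited table.

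The labels give 2 libraries from cells treated with 1 mM octanoate, a medium-chain fatty acid, and 2 from cells given its vehicle isopropanol, all after 48 hours in medium with serum. All 4 libraries come from the same line with no genetic change named in the labels, and nothing in the labels says whether replicates were separate cultures, so p-values may measure technical spread. The deposited table holds 1 comparison, taken here to be that of the treatments although its header names no group, giving for each region its mean level, the log2 fold change with the standard error (SE), and a raw and an adjusted p-value. It gives no value per library, so depth is unknown, no level per sample can be shown and no spread between replicates can be computed. The numerator is not given either, and changes are therefore called positive or negative. All 95312 mean levels of the authors' deposited table were whole multiples of 1/8 at the 6th decimal, and 50.1% were whole multiples of 1/4. The mean level thus has the form of an average over 8 values, more than the 4 labelled H3K27ac libraries, and which libraries entered it and the fit is not given in the sources used here.

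The genes within a cluster are numbered in 13 paralog groups from one end to the other. Low-numbered (anterior) genes are expressed early and toward the head, and high-numbered (posterior) genes later and toward the tail and the tips of the limbs. Adult cells keep much of the pattern of the body level they came from. Polycomb complexes place H3K27 methylation over the silent stretches, and acetylation of the same residue marks active promoters and enhancers, and a single lysine cannot carry both.

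As a check of the cell type, regions of the authors' deposited table overlapped the starts of 6 of 10 markers of the melanocyte lineage and neural crest (EDNRB, MITF, PAX3, PMEL, S100B and SOX10), and of MLANA, TYR, DCT and TYRP1 none did. Of 13 markers of other lineages, APOA1 was the only one with a region at its start in the authors' deposited table, and a region 311786 bases from CDH5 was the only one of these lists to pass an adjusted p of 0.05 there. The authors' deposited table has a computed adjusted p for regions whose mean level was at least 18.44, and these are called tested: 36436 of all regions, with a median log2 fold change of 0.32, and 45 of the 89 HOX regions. No untested HOX region had a mean level above 17.7 in the authors' deposited table.

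H3K27ac regions overlapped the start of 25 of the 39 HOX genes in the authors' deposited table, which means a listed distance of 0. All 9 HOXC genes were among them, with 6 of 10 HOXB genes, 6 of 9 HOXD genes and 4 of 11 HOXA genes. A further 8 genes were named by regions of the authors' deposited table away from their start, and 6 genes were named by none: HOXA2, HOXA9, HOXB5, HOXD3, HOXD4 and HOXD12. With the outermost start of each gene in RefSeq (GRCh38.p14) in place of the authors' start, 26 of 39 genes had their start in a region of the authors' deposited table. HOXA3 and HOXB4 were gained by this and HOXD13 was lost, because the sources place these starts differently.

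The share of each cluster under HOX-named regions was measured between the outer ends of its outermost HOX genes in RefSeq. Outside these spans lay 12 of the HOX-named regions of HOXA, 6 of HOXB, 7 of HOXC and 0 of HOXD. They count as members by name in the other sections. Regions of the authors' deposited table covered 45.2% of the 117.2 kb of HOXC, 35.2% of the 107.1 kb of HOXA, 28.5% of the 200.2 kb of HOXB and 20.1% of the 103.4 kb of HOXD. The HOXB span includes the long interval between HOXB9 and HOXB13, where 2 regions named for PRAC1 and 1 for PRAC2 also lay in the authors' deposited table. The summed mean level per kb of the covering regions in the authors' deposited table was 38.5 in HOXB, 32.4 in HOXC, 29.7 in HOXA and 20.9 in HOXD. HOXC was thus the cluster with the most of its length covered, and HOXD was lowest in both measures. The mean level is 1 value per region and not one per treatment, so these values carry no comparison of octanoate with vehicle.

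**Figure D1:**
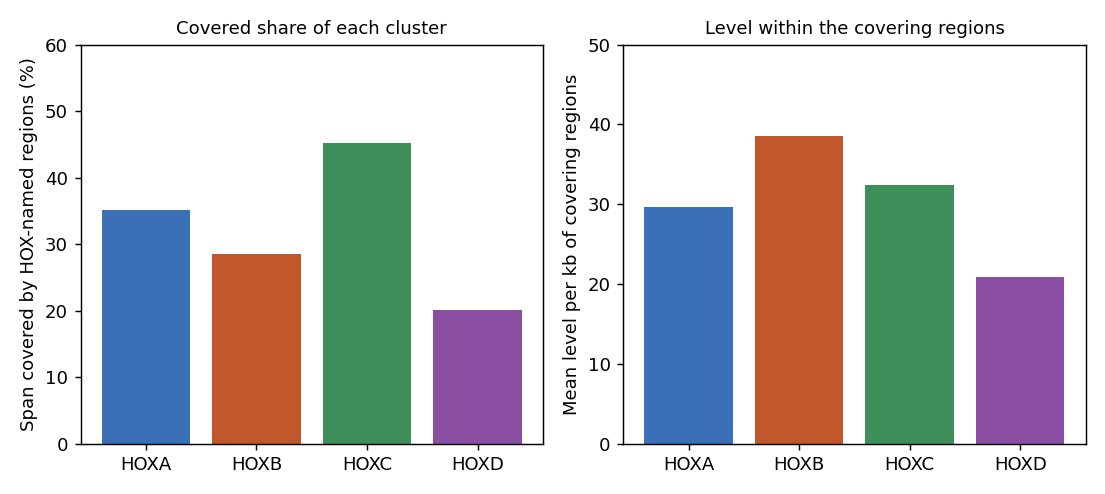
Left, percent of each cluster's span covered by HOX-named H3K27ac regions; right, their summed mean level (authors' normalised units) per kb of region. HOXC had 45.2% covered and HOXD 20.1%, with 32.4 and 20.9 units per kb.

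The stretch with the longest break was in HOXD. No region of the authors' deposited table lay in the 36.6 kb from 176141156 to 176177754 on chromosome 2, which is 35.4% of the cluster's span and holds HOXD3, HOXD4 and the miRNA gene MIR10B. In HOXA the longest break in the authors' deposited table was 12.4 kb over HOXA2, and a break of 9.15 kb held HOXA9, a gene best known from leukaemia. In HOXB it was 30.2 kb between HOXB9 and HOXB13 in the authors' deposited table. In HOXC it was 11.7 kb between HOXC12 and HOXC11 in the authors' deposited table, with no HOX gene wholly inside. Of 6 miRNA hairpins of the clusters looked up by name in RefSeq, MIR615 lay inside a region of the authors' deposited table, that at HOXC5. The 5 others did not: MIR196A2 was 400 bases from the nearest region, MIR10A 462, MIR196B 1136, MIR196A1 3050 and MIR10B 9147. Further miRNA genes in the clusters were not searched for. The antisense and intergenic RNA genes HOTAIR and HOTTIP each overlapped a region of the authors' deposited table.

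**Figure D2:**
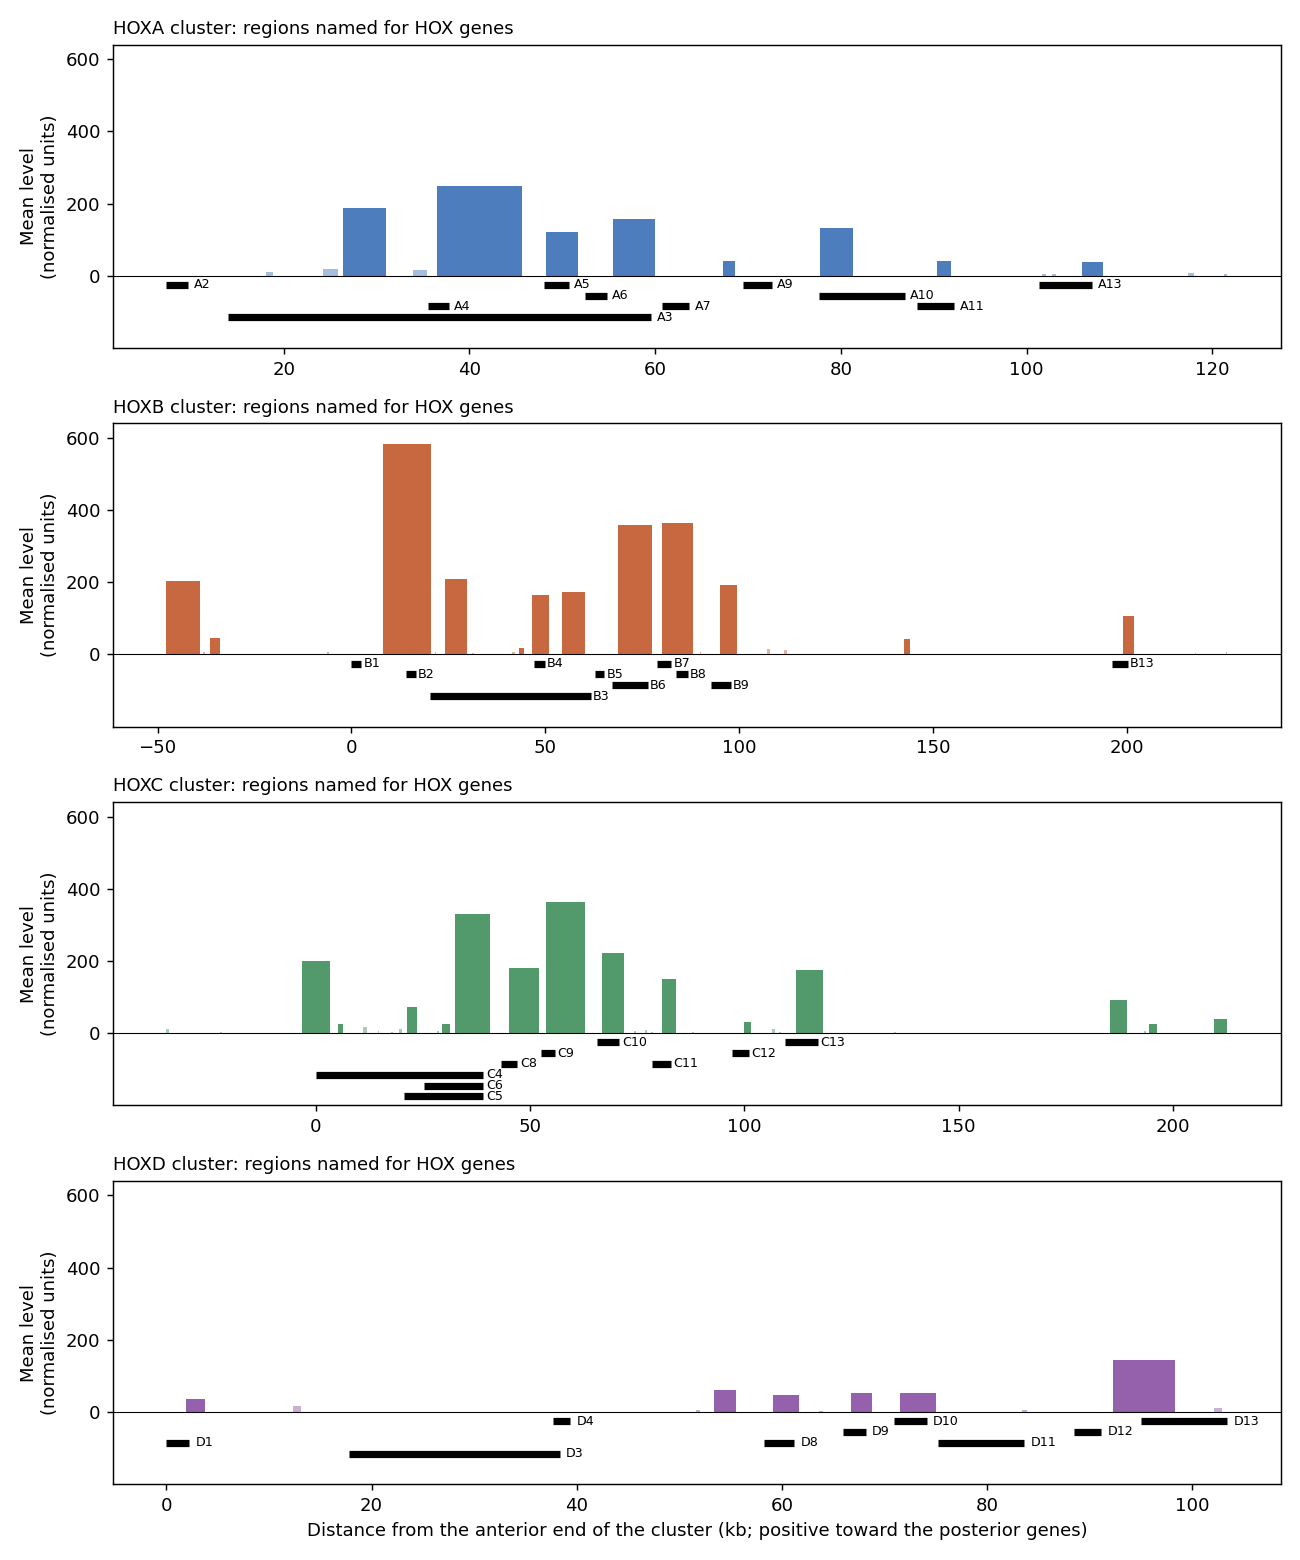
Mean H3K27ac level (authors' normalised units) of HOX-named regions against distance in kb from the anterior end of the cluster, with bar width equal to region width (at least 0.4 kb) and pale bars for untested regions; black lines are RefSeq gene spans. The HOXB2 region reaches 582.7, and no bar stands over HOXD3 or HOXD4.

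To show what DNA lay at acetylated and at unmarked HOX starts, promoter sequence was taken from RefSeq (GRCh38.p14), where entries were found for 20 of the 39 genes. The 250 bases before the start are given for 6 of them, chosen after the values were seen: HOXA13, HOXC4 (a start that RefSeq also gives for HOXC5) and HOXD8, whose starts lay in a region of the authors' deposited table, and HOXA2, HOXB1 and HOXD4, whose starts did not. They lie at chr7:27200092-27200341, chr12:54016638-54016887, chr2:176129455-176129704, chr7:27102684-27102933, chr17:48531012-48531261 and chr2:176151300-176151549 in that order, on the minus strand for HOXA and HOXB and the plus strand for HOXC and HOXD. Capitals mark matches, on either strand, to any of 7 motifs. These were the CCAAT box, the GC box with the letters GGGCGG, the TATA box with the letters TATAAA, a composite of PBX and HOX half-sites with the letters TGATNNAT, a homeodomain core with the letters TAATTA, the cAMP response element with the letters TGACGTCA, and an E-box with the letters CACGTG, and no matches overlapped in these 6 sequences.
HOXA13: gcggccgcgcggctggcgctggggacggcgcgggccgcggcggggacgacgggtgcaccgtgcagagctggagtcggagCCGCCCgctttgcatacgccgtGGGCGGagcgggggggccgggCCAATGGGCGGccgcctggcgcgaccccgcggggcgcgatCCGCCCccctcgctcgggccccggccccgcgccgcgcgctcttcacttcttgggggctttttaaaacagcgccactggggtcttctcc
HOXC4: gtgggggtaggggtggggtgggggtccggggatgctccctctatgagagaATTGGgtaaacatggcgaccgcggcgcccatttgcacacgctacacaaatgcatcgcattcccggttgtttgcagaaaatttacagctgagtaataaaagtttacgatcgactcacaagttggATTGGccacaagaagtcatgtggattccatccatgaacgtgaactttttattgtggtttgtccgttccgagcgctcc
HOXD8: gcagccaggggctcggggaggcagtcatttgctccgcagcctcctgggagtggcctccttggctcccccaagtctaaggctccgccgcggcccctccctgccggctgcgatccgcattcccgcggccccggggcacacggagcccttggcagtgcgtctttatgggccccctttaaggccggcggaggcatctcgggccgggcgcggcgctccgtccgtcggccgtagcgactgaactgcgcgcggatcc
HOXA2: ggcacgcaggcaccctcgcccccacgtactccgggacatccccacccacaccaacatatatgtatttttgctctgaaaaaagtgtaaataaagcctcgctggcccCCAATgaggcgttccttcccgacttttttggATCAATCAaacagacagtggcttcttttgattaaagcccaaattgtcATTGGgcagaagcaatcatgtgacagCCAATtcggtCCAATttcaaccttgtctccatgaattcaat
HOXB1: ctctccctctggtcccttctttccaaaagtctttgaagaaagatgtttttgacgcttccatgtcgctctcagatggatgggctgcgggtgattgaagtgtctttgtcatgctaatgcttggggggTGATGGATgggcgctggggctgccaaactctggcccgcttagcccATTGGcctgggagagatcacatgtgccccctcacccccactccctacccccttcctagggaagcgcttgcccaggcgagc
HOXD4: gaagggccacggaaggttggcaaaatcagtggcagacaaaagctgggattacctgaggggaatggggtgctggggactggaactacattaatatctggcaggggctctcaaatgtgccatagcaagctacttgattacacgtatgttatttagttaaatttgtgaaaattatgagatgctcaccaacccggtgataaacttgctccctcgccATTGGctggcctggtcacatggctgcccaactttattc

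These sequences differ in base composition. The CG dinucleotide, the target of DNA methylation, occurred 40 times in the 250 bases before HOXA13 and 28 times before HOXD8, but 14 times before HOXC4, 8 before HOXA2, 7 before HOXB1 and 4 before HOXD4. Over 27 distinct HOX promoter entries the median was 22 CG dinucleotides for the 14 whose start lay in a region of the authors' deposited table (0 to 40) and 19 for the 13 others (4 to 28), against 11 over all 34943 promoters in RefSeq. The ranges overlapped from 4 to 28, and 7 of the entries belong to HOXA3 alone. HOXB enters only through HOXB1, and HOXC only through the start shared by HOXC4 and HOXC5. The CG and motif values over HOX promoters thus describe mainly HOXA and HOXD. HOXA2 had 4 matches to CCAAT and HOXA13 4 to the GC box. The CCAAT box was matched in 17 of 27 HOX promoters and in 32.0% of all promoters, the GC box in 14 and in 42.5%, the E-box in 8 and in 6.32%, and the TATA box in 5 and in 10.8%. Matches to the PBX-HOX composite were found in 3 of 27 and in 6.49% of all, to TAATTA in 2 and in 4.35%, and to the cAMP response element in 0 and in 1.63%. Each match is a run of letters and says nothing on binding.

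At starts, HOX regions had a higher median level than all regions at starts. The median mean level was 145 for the 23 HOX regions at a start in the authors' deposited table and 83.7 for all 10642 regions at a start. By cluster it was 359.8 in HOXB, 178 in HOXC, 128 in HOXA and 49.5 in HOXD, so HOXD lay below all regions at starts. The 23 HOX regions were also slightly wider, at a median of 3768 bases against 3186 in the authors' deposited table. Per kb of region the tested ones had a median of 32.2 units against 25.8 for all tested regions at a start in the authors' deposited table. All regions come from the same libraries, so no test was made between sets of regions here or below.

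The highest HOX levels lay in HOXB and HOXC. The region over HOXB2, which patterns the hindbrain, had a mean level of 582.7 (46.6 per kb) over 12491 bases in the authors' deposited table, higher than 99.9% of all regions, and was also the widest HOX region. In the middle of that cluster the region over HOXB7 and HOXB8 had 363 (46.2 per kb) and that over HOXB6 359.8 (40.4 per kb) in the authors' deposited table. HOXB7 is known to drive FGF2 expression in melanoma cells. In HOXC the region over HOXC9, a gene of the thoracic level, had 364 (40.7 per kb) and that over HOXC4 and HOXC6 331 (39.7 per kb) in the authors' deposited table. Per kb these 5 regions, and those at HOXB9, HOXC10 and HOXC11, lay between 39.7 and 46.6, above the 29.9 that is the median of all 23 HOX regions at a start in the authors' deposited table.

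Over all HOX-named regions, untested ones included, the order was different: the median level was 35.6 in HOXD, 30.05 in HOXB, 17.7 in HOXA and 16.7 in HOXC in the authors' deposited table. The tallest regions of HOXA and HOXD were below the tallest of HOXB and HOXC. The highest HOXA level was 248 (27.1 per kb) over HOXA4 in the authors' deposited table. This region of 9144 bases is also named for HOXA3 and lies within the RefSeq span of that gene. The highest HOXD level was 145 (23.9 per kb) at HOXD13, a gene of digit formation, over 6076 bases of the authors' deposited table. The other HOXD regions at starts had 52.8 at HOXD9, 51.4 at HOXD10, 47.5 at HOXD8, 35.6 at HOXD1 and 6.68 at HOXD11 in the authors' deposited table. HOXD11 was the 1 gene start whose region was too low to be tested.

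The treatments were then compared. Of the 45 tested HOX regions, 1 had a DESeq2 adjusted p under 0.05 in the authors' deposited table (2.22%), beside 1.67% of all 36436 tested regions. The call was positive, and by sign 1.65% of all tested regions of the authors' deposited table were positive calls and 0.0192% negative ones. An unadjusted p-value under 0.05 was found for 9 HOX regions, all positive (20.0%), beside 18.4% of all tested regions in the authors' deposited table, or 17.9% counting positive ones alone. Both shares are close to the background. The median log2 fold change of the tested HOX regions was 0.30 in the authors' deposited table, with quartiles of 0.14 and 0.48, and 43 of 45 were positive. Over all tested regions of the authors' deposited table the median was 0.32, the quartiles were 0.15 and 0.50, and 87.3% were positive. With the median of all tested regions subtracted, 0 HOX regions passed an adjusted p of 0.05 computed from the authors' deposited table, beside 0.124% of all tested regions. With adjustment over all distinct regions of the authors' deposited table, 0 HOX regions and 0.274% of all regions passed. The tested HOX-named regions as a whole therefore lay close to the median shift of the table, and 20 of the 45 were above that median.

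**Figure D3:**
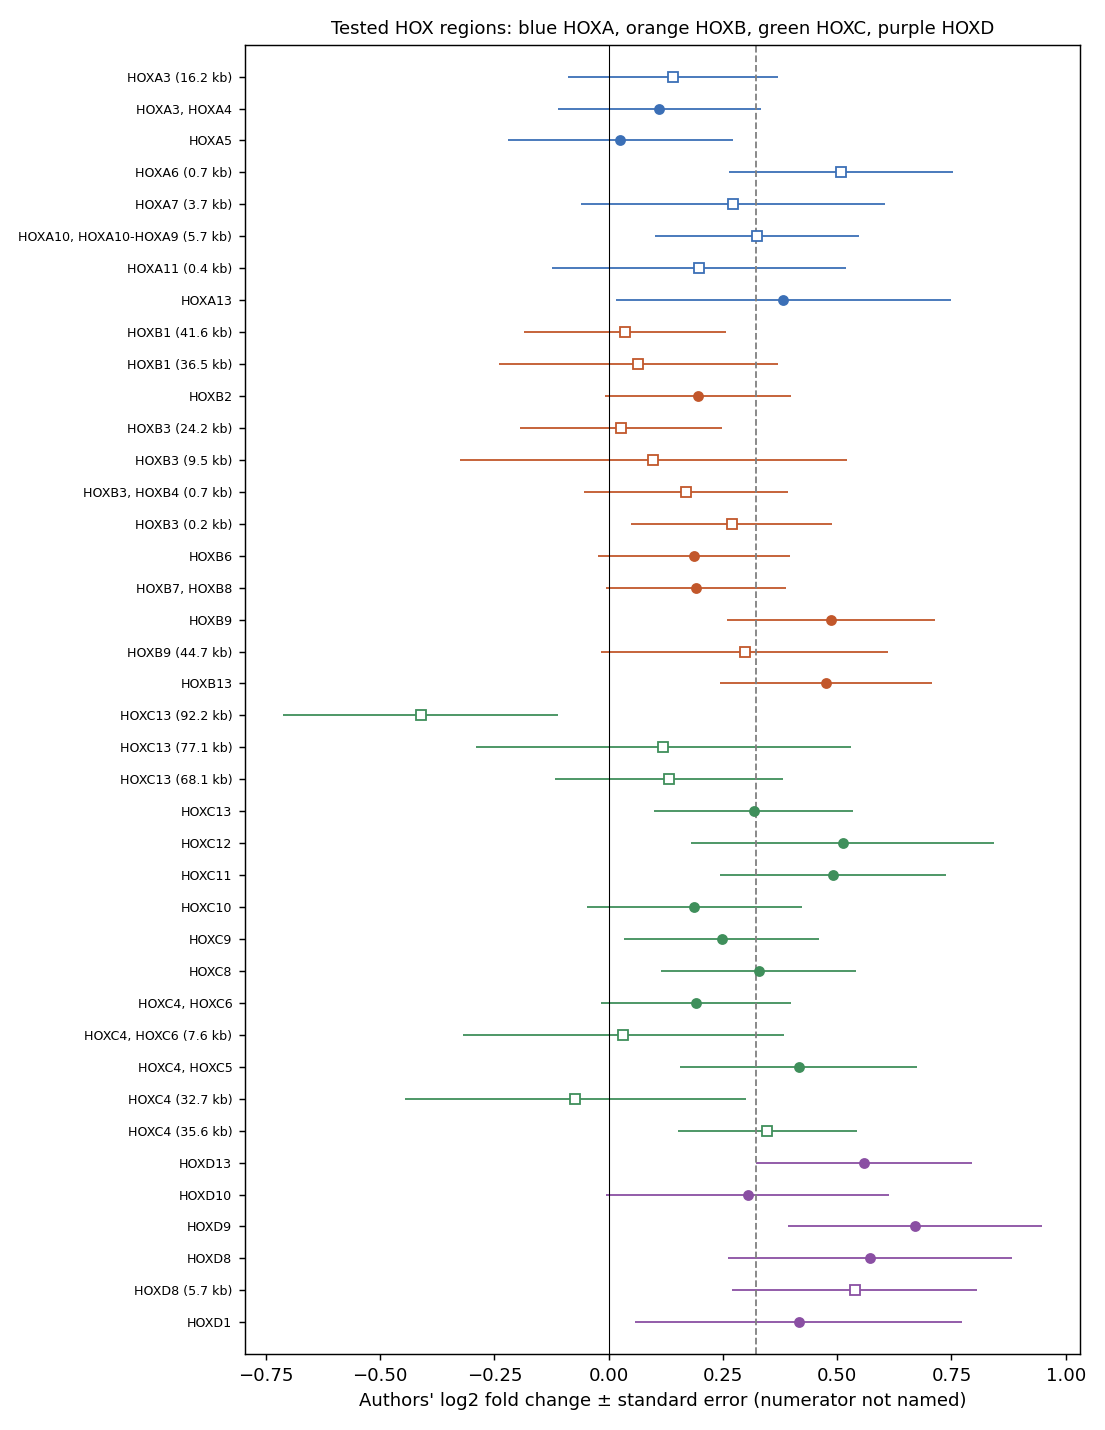
Log2 fold change ± standard error of 40 tested HOX regions from the authors' table, in genome order within each cluster; filled circles overlap a HOX start, open squares carry the distance in kb to the nearest named HOX start and the dashed line is the median of all tested regions (0.32). The points run from -0.41 to 0.67, and 38 of the 40 are above 0.

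In HOXA the median over 13 tested regions, all positive, was 0.33 in the authors' deposited table. At HOXA4 the log2 fold change was 0.11 ± 0.22 (SE), and at HOXA5, a gene needed for lung development, 0.03 ± 0.25 (SE), in the authors' deposited table. The HOXA5 interval of the authors' deposited table, from -0.46 to 0.51, includes both 0 and the table's median. Next to HOXA6 the region 715 bases from the start, which also holds the outermost RefSeq start of HOXA3, had 0.51 ± 0.24 (SE) in the authors' deposited table (unadjusted p-value 0.0376, adjusted 0.245). At HOXA13, a gene of limb and genital development, it was 0.38 ± 0.37 (SE) at a mean level of 38.0 in the authors' deposited table.

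HOXB had the lowest median. Its 12 tested regions were all positive, at 0.03 to 0.49, and their median was 0.19 in the authors' deposited table, and 2 of them lay above 0.32. From HOXB1 to HOXB8 the 9 tested regions had a median of 0.17 and a highest value of 0.27 in the authors' deposited table. The tall regions were among them: HOXB2 had 0.20 ± 0.20 (SE), HOXB6 0.19 ± 0.21, and the shared HOXB7 and HOXB8 region 0.19 ± 0.20 in the authors' deposited table. The smallest value, 0.03 ± 0.22 (SE), came from a region of 5753 bases within the RefSeq span of HOXB3, 24226 bases from its listed start in the authors' deposited table. The 2 posterior starts were higher, with 0.49 ± 0.23 (SE) at HOXB9 and 0.48 ± 0.23 at HOXB13, a gene of the prostate and tail end, in the authors' deposited table. Their unadjusted p-values were 0.0328 and 0.0399, and their adjusted ones 0.235 and 0.251, in the authors' deposited table.

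HOXC showed both signs. Of its 14 tested regions 12 were positive and 2 negative, with a median of 0.22 and a range from -0.41 to 0.51 in the authors' deposited table. The 8 at starts were all positive. The highest were HOXC12 with 0.51 ± 0.33 (SE) and HOXC11 with 0.49 ± 0.25 (SE) in the authors' deposited table, and HOXC11 had p = 0.0466 unadjusted and 0.264 adjusted by DESeq2. HOXC5 had 0.42, HOXC8 0.33, HOXC13, a gene of hair and nail, 0.32, HOXC9 0.25, and HOXC10 and the shared HOXC4 and HOXC6 region 0.19 each, with standard errors from 0.21 to 0.26 in the authors' deposited table. The negative regions lay far from starts: the smallest, -0.41 ± 0.30 (SE), was 92227 bases from HOXC13 at a mean level of 40.6 in the authors' deposited table, and its 95% interval includes 0. A tall region of 6573 bases at the far end of HOXC4 (mean level 199.7) had 0.35 ± 0.20 (SE) in the authors' deposited table.

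HOXD had the highest median and the fewest regions. Its 6 tested regions had a median log2 fold change of 0.55 in the authors' deposited table, with a lowest value of 0.30 and a highest of 0.67. Above 0.32 lay 5 of the 6. HOXD9 had 0.67 ± 0.28 (SE), HOXD8 0.57 ± 0.31, HOXD13 0.56 ± 0.24, HOXD1 0.42 ± 0.36 and HOXD10 0.30 ± 0.31 in the authors' deposited table. The unadjusted p-values were 0.0161 at HOXD9, 0.0181 at HOXD13 and 0.0444 at a region 5675 bases from HOXD8, and the adjusted ones 0.183, 0.192 and 0.260, in the authors' deposited table. Intervals for the median from the ordered values of the authors' deposited table were 0.304 to 0.670 for HOXD and 0.066 to 0.297 for HOXB. The HOXD interval is the full range of its 6 tested regions. Both intervals treat regions as independent although these share libraries, so they are no test between the clusters. The single values of HOXD and HOXB overlapped, between 0.30 and 0.49. The clusters also differ in level, since the tested HOXD regions had a median mean level of 52.1 against 183 for HOXB in the authors' deposited table. The part of level in the difference between clusters was not tested. Over the 45 tested HOX regions the rank correlation of level with fold change was -0.07 in the authors' deposited table, as a description of regions that share libraries.

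Regions were also grouped by the paralog number of the nearest named gene, with groups 1 to 3 as anterior, 4 to 8 as central and 9 to 13 as posterior. The median log2 fold change of tested regions was 0.27 for 13 anterior, 0.19 for 15 central and 0.32 for 17 posterior regions in the authors' deposited table. The classes differed by cluster. Among anterior regions the median was 0.08 in HOXB (6 tested), and that of HOXA (6 tested) lay above the pooled 0.27. HOXD had 1 tested anterior region, at 0.42, and HOXC had none. Central and posterior medians were 0.19 and 0.32 in HOXA and 0.19 and 0.48 in HOXB. In HOXD they were 0.55 and 0.56, and HOXC went the other way, with 0.26 and 0.22. Each of these medians rests on 2 to 8 tested regions. At starts, the 11 tested posterior regions ran from 0.19 to 0.67 with a median of 0.48, and the 8 central ones between 0.03 and 0.57 (median 0.19) in the authors' deposited table. The 3 anterior ones had a median of 0.42 in the authors' deposited table, between these values and closer to the posterior one. The ranges overlapped over most of their length. Of these 11 posterior starts 5 had an unadjusted p-value under 0.05 (HOXB9, HOXB13, HOXC11, HOXD9 and HOXD13), of the 8 central ones none did, and of all tested regions at starts 19.2% did in the authors' deposited table. None of these 19 regions had an adjusted p-value under 0.05. In paralog group 13, present in all 4 clusters, the start regions had 0.56 at HOXD13, 0.48 at HOXB13, 0.38 at HOXA13 and 0.32 at HOXC13 in the authors' deposited table, which their standard errors of 0.22 to 0.37 do not separate.

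**Figure D4:**
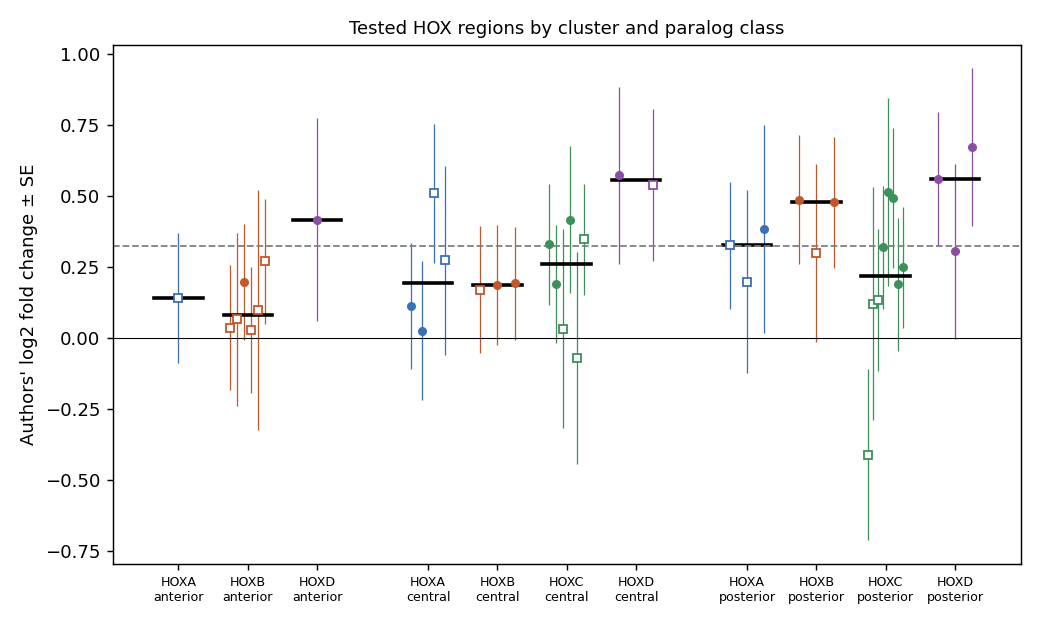
Log2 fold change ± standard error (authors' table) of 40 tested HOX regions by paralog class and cluster; black bars are medians over the regions drawn, filled circles overlap a HOX start, open squares do not, and the dashed line is the median of all tested regions (0.32). HOXB anterior and central regions lie at or below 0.27, and the 2 HOXB starts of the posterior class at 0.48 and 0.49.

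Tall and wide HOX regions had medians below those of all such regions. Among 23 HOX regions whose level reached 100 the median was 0.25, against 0.31 for all 7591 such regions of the authors' deposited table. For the 15 HOX regions at least 5 kb wide it was 0.20, against 0.30 for all 5637 tested regions of that width in the authors' deposited table. These regions come mostly from HOXB and HOXC, and none at a level of at least 100 was negative in the authors' deposited table. Regions at least 10 kb from the named start numbered 42, of which 14 were tested, with a median of 0.14 in the authors' deposited table, against 0.32 for the 31 tested regions nearer than that. At starts the median of 22 tested HOX regions was 0.36, which is near the 0.35 of all 9996 tested start regions in the authors' deposited table. Away from starts it was 0.20 for 23 tested HOX regions and 0.31 for all 26440 tested regions of the authors' deposited table.

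The 44 untested regions were small and low. A region of 369 bases, 24903 bases from HOXB13, had a log2 fold change of 1.36 ± 0.69 (SE) at a mean level of 6.11 and an unadjusted p of 0.0483 in the authors' deposited table. This SE is above 0.42, the highest SE of a tested HOX region in the authors' deposited table.

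The first regions beyond the outermost HOX-named region on each side of a cluster gave a local comparison. Beside HOXA, the SKAP2 region had a log2 fold change of 0.53 ± 0.28 (SE) and the EVX1 region 0.50 ± 0.35 in the authors' deposited table. Beside HOXD, the region near EVX2, an even-skipped gene at the posterior end, had 1.00 ± 0.42 (adjusted p-value 0.184) and the MTX2 region 0.25 ± 0.33 in the authors' deposited table. For HOXC the CALCOCO1 region had 0.01 ± 0.23 and the SMUG1 region 0.58 ± 0.26, and for HOXB the TTLL6 region 0.16 ± 0.33 and the untested SKAP1 region -0.50 ± 0.64, in the authors' deposited table. The tested neighbours thus ran from 0.01 to 1.00, while the tested HOX regions reached down to -0.41. No neighbour passed an adjusted p of 0.05.

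Genes that act with HOX proteins or on HOX chromatin were counted in the same way, beside the 1.67% of all tested regions that were called and the 18.4% with an unadjusted p-value under 0.05 in the authors' deposited table. PBX, MEIS and PKNOX proteins bind DNA together with HOX proteins, and the 40 tested regions of these 9 cofactor genes had a median log2 fold change of 0.18, with 0 calls in the authors' DESeq2 table and 2 at an unadjusted p-value under 0.05 (5.0%), in the authors' deposited table. For 22 Polycomb genes, which silence HOX clusters, 67 tested regions had a median of 0.31, with 1 call and 9 at an unadjusted p-value under 0.05 (13.4%) in the authors' deposited table. The call was a region 25952 bases from RNF2, which encodes the enzyme that ubiquitinates histone H2A (1.02 ± 0.25 (SE), DESeq2 adjusted p = 0.0110 in the authors' deposited table), and it did not pass after the table's median was subtracted (adjusted p-value 0.433). A list of 16 genes held Trithorax and H3K27 demethylase genes, which keep HOX genes active, and also DOT1L, MLLT1, MLLT3, AFF1 and AFF4. Its 35 tested regions had a median of 0.27, with 0 calls and 6 at an unadjusted p-value under 0.05 (17.1%) in the authors' deposited table. The ParaHox and even-skipped genes, the close relatives of HOX, had no region at a start. Their 6 tested regions had a median of 0.70, with 0 calls and 3 at an unadjusted p-value under 0.05 in the authors' deposited table. These 6 had levels of at most 28.2, near the limit of 18.44 for testing, and standard errors from 0.34 to 0.42. The EVX1 and EVX2 regions given above are among them. The genes flanking the clusters had 71 tested regions with a median of 0.30, 0 calls and 11 at an unadjusted p-value under 0.05 (15.5%) in the authors' deposited table.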

How the data were processed

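H3K27ac chromatin immunoprecipitation libraries of A375 cells were analysed from the 1 deposited table, in which the authors give their own comparison. The labels give 2 octanoate and 2 vehicle libraries, and the form of the mean levels, an average over 8 values, leaves the number of libraries in the authors' fit unknown. Trim Galore, cutadapt, Bowtie2, Picard, MACS2, featureCounts, DESeq2 and bedtools 2.29.1 with build hg38 are named in the submitters' processing notes, without settings. Per the file headers, the deposited mean level is a normalised signal, the fold change and its error are on the log2 scale, the statistic is a score, and each p-value is given unadjusted and adjusted. Dividing fold change by error gave the deposited score, with differences of at most 3.38e-14. A deposited adjusted p-value of 1 was read as not computed, because applying Benjamini-Hochberg to the other 36436 regions gave the deposited values back, with differences of at most 1.58e-14. Starts implied by non-zero distances lay inside all 9399 lines with a distance of 0 that could be checked, to within 5 bases. For HOX genes with such a start, 18 of 23 were no more than 1 kb from either end of the RefSeq gene. Repeated lines of a region were merged. In place of a test across libraries, for which the table has no values, the authors' DESeq2 adjusted p-values were used. The threshold of 0.05 was set here. Intervals are the fold change plus or minus 1.96 standard errors. Centring subtracted the median of tested regions and adjusted again. Columns of single libraries left out numbered 0. The procedures were tested on simulated data. Python 3.11.15, pandas 2.3.3 and SciPy 1.17.1 were used. Values were given for regions at starts, and the tallest, widest, highest and lowest of each cluster, with others, such as HOXA6 and the untested regions, chosen after their values were seen. Members, gene lists and rules were chosen with earlier results of these data known. Alternatives were thresholds, filters on level, weighting, centring and other adjustments. The regions of 1 HOX gene enter the counts, medians and covered shares, are left out of the plots of single regions, and are not reported individually here.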

Additional observations from a re-analysis of the deposited data

How the results depend on the processing

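The 1 called HOX region became 0 at an adjusted p-value under 0.01, with a minimum size of 1 for the log2 fold change, among starts only, with adjustment over all distinct regions, and with centring on the median of tested regions or, added after seeing the data, on that of regions at a level of at least 100. The Polycomb call also became 0 with centring. Of 30 alternative values for the medians of HOX and its clusters all were positive, from 0.19 to 0.56. Inside the main interval over regions stayed 29, and the exception was the HOX median of 0.36 at starts. These alternatives reuse the same regions, and the HOXD interval spans all of its 6 tested values. Subsets of those 6 could not leave it, so the count of 29 does not measure robustness. The share of positive HOX regions was 78.7% with untested regions included and 44.4% after centring, as follows from subtracting a positive median. The median level over all member regions became 128 for HOXA, 359.8 for HOXB, 178 for HOXC and 49.5 for HOXD at starts only. Per kb of region it was 16.3, 21.5, 18.6 and 18.7 over all member regions of HOXA, HOXB, HOXC and HOXD. Covered shares with tested regions only were 30.7%, 26.9%, 41.2% and 17.5%, in the same order of clusters. No paired analysis was possible because values of single libraries were not analysed here. Refitting with edgeR or DESeq2, dropping the filter on low counts, leaving out a replicate and the replicate block were therefore not run. Depth is unknown, and the standard errors limit what a single region can show.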
